A study of Mus musculus with 141 samples.

Results

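The peripheral myelin protein 22 (PMP22) family and the tetraspanins are small membrane proteins that cross the plasma membrane several times and organise other proteins around them. The 9 genes described here were the PMP22 family members Pmp22, Emp1, Emp2 and Emp3 and the tetraspanins Cd9, Cd63, Cd81, Cd82 and Cd151, chosen by name from 17136 genes in the count table. They were followed in single lung epithelial cells of the mouse, across alveolar type 1 cells, alveolar type 2 cells and the remaining cells.

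PMP22 was first known from the myelin of Schwann cells, and the epithelial membrane proteins (EMPs) are its relatives in epithelia, where EMP2 takes part in integrin trafficking. Tetraspanins gather integrins, immunoglobulin-superfamily proteins and proteases into membrane microdomains: CD9 and CD81 bind IGSF8 and PTGFRN, CD151 binds laminin-binding integrins, and CD63 marks late endosomes and exosomes. Type 1 cells are thin and cover most of the gas-exchange surface, and type 2 cells are cuboidal and make surfactant.

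The cells came from 1 mouse of 4 months that carried Cre and DsRed at the Aqp5 locus and a Cre-activated tdTomato at the ROSA26 locus (ACID;R26tdTomato, strain 129SV by its label). Since Aqp5 drove the Cre, any cell that had used Aqp5 at some time could carry the colour. Cells were sorted as CD31-, CD45-, E-cadherin+ and tdTomato+ and captured 1 per site on a Fluidigm C1 chip, and every cell shared the genotype, so there was no control group. The cells had 91402 to 2170760 reads each (median 419970).

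A cell was kept when under 0.15 of its reads fell on mitochondrial genes, which left 92 cells and set 49 aside. Of these, 45 had at least 5000 CPM (reads of the gene per 1000000 reads of the cell) of Ager, a receptor abundant in type 1 cells, and were classed as type 1. Another 11 cells had at least 8000 CPM of Sftpc, which encodes surfactant protein C, and were classed as type 2. The other 36 cells were the rest, and 0 cells passed both cuts. The lowest Ager level inside the cut was 9335 CPM and the highest outside was 1402 CPM, whereas the Sftpc levels next to the cut were 25437 CPM inside and 7774 CPM outside. The labels name every cell as alveolar type 1, which the markers did not bear out for the cells outside the Ager cut.

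A cell was called high in a marker list when at least 0.5 of its measured markers exceeded 100 CPM. By this measure 45 of 45 type 1 cells were high in a list of 10 type 1 markers, against 0 type 2 cells and 0 of the rest. The type 2 list was high in 10 of 11 type 2 cells and in 1 of the rest, and the exception in type 2 was the cell of lowest Sftpc. The list of club cells, the secretory cells of the airways, was also high in 4 type 1 cells and 1 type 2 cell. Of 6 macrophage markers only 2, Ptprc and Csf1r, were measured. Ptprc, which encodes CD45, was at 0 in every class of these cells, which had been sorted as CD45-. Csf1r, a macrophage growth factor receptor, stood at 348 CPM in type 1 cells and was found in 32 of 45. Through Csf1r alone the macrophage list was high in 21 type 1 cells, against 0 type 2 cells and 0 of the rest. Of 5 endothelial markers 3 were at 0 in type 1 cells. The part of other cell types in the values below was not tested. The median depth was 468718 reads in type 1 cells, 413806 in type 2 cells and 693389 in the rest, and the median share of mitochondrial reads was 10.2%, 9.41% and 7.60%.

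All cells were from 1 mouse, so cells were not replicates and differences between classes were not tested. Each class level was computed by summing the reads of its cells and scaling them to CPM, with an exact Poisson 95% interval. Reads were not marked by molecule, so intervals, and the floor of 3 reads set for a class with 3 or fewer, cover counting error only. A difference was called past 2-fold when the log2 ratio of 2 class levels was at least 1 in size, among genes with at least 10 CPM in 1 of the classes.

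The start regions of the PMP22 family genes are printed because these genes had unlike class patterns. Each window runs from 250 bases before to 50 bases after the most upstream start listed by RefSeq for the gene (GRCm38.p6), 5′ to 3′ on the strand of the gene. Pmp22 is at chr11:63128732-63129031 (plus strand), Emp2 at chr16:10313919-10314218 (minus strand), Emp1 at chr6:135362681-135362980 (plus strand) and Emp3 at chr7:45921377-45921676 (minus strand). Capitals mark matches to the motifs searched. The letters GGAATG, read by TEAD factors, were sought on both strands. The letters TGANTCA, read by AP-1 factors, were sought in the same way. The GC box was sought as GGGCGG on both strands. The letters TATAAA of the TATA box were sought on the strand of the gene.
Pmp22: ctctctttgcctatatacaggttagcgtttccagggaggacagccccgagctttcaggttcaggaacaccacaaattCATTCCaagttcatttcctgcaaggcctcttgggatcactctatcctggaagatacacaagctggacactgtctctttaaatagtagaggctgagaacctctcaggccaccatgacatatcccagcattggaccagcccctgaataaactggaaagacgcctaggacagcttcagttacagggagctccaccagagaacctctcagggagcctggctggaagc
Emp2: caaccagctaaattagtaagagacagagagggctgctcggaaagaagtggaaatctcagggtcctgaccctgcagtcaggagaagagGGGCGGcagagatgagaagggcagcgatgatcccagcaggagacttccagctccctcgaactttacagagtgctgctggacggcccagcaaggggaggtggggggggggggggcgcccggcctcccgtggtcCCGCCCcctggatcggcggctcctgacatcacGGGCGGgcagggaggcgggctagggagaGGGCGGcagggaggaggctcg
Emp1: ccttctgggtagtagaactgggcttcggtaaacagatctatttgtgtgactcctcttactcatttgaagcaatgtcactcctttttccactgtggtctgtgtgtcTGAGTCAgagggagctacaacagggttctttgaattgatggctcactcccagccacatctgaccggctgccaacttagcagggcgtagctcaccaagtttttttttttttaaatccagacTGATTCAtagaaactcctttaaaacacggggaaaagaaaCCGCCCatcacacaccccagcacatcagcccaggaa
Emp3: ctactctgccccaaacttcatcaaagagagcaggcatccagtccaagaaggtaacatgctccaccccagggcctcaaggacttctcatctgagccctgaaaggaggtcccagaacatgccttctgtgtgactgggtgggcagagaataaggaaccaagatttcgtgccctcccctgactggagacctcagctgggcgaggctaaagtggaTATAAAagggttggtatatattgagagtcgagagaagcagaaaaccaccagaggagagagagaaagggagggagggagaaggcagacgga

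The Pmp22 window held 1 TEAD match, at base 78 counted from 1 at its 5′ end. The Emp2 window held 4 GC boxes, at bases 88, 220, 252 and 280. In Emp1, 2 AP-1 matches lay before the start, the nearer at base 226, and 1 GC box at base 265, and Emp3 had 1 TATA match at base 211. Among 32851 windows of this length, 14.7% held the TEAD letters, 7.81% the AP-1 letters, 35.7% the GC box and 8.32% the TATA letters. The 4 windows differed in base composition: Emp2 had 65.7% G and C with 16 CpG dinucleotides, Pmp22 50.7% with 3, Emp1 46.7% with 5 and Emp3 52.7% with 4, against medians of 52.7% and 7 over all windows. Pmp22 has 4 listed starts, and the second to the fourth windows were richer in CpG, with 18, 20 and 30. Reads were counted per gene, so the start in use was not resolved. A match is a description of letters and not a binding site.

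Among the alveolar cells, Pmp22 was found at high level in type 1 cells alone. The gene lies on chromosome 11 from 63128982 to 63159547 (plus strand). Per cell, its level ran from 118.2 through a median of 2442 to 9772 CPM in type 1 cells, from 0 through 2.89 to 34.5 CPM in type 2 cells and from 0 through 1.35 to 1032 CPM in the rest. The lowest type 1 cell stood above the highest type 2 cell, whereas a few of the rest reached into the type 1 range.

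The class level of Pmp22 was 3382 CPM (3359 to 3406) in type 1 cells, 3.86 (2.50 to 5.70) in type 2 cells and 110.99 (107.1 to 115.03) in the rest. The log2 ratio of type 1 to type 2 was 9.78 (counting interval 9.21 to 10.40), an 876-fold difference that ranked 9 of 8796 genes from the top. Against the rest the log2 ratio was 4.93, and a type 1 cell was above a cell of the rest in 98.8% of pairs. A single cell held 43.4% of the Pmp22 reads of the rest, and without it their level was 65.9 CPM. Detection was wider than level: 10 of 11 type 2 cells had at least 1 Pmp22 read, from 25 reads in all, but only 4 had one when each cell was thinned to 90000 reads.

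Emp2 was the other member found at high level in every type 1 cell. The gene lies on chromosome 16 from 10281749 to 10313968 (minus strand). Levels per cell ran from 449 through a median of 3288 to 9612 CPM in type 1 cells, from 9.67 through 342 to 3071 CPM in type 2 cells and from 0 through 9.04 to 880 CPM in the rest. The ranges overlapped, but the median followed the order type 1, type 2, the rest.

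As class levels, Emp2 stood at 3749 CPM (3724 to 3774) in type 1 cells, 417 (402 to 433) in type 2 cells and 71.1 (67.96 to 74.3) in the rest. The log2 ratio was 3.17 for type 1 against type 2, 5.72 for type 1 against the rest and 2.55 for type 2 against the rest. In type 2 cells the class level of Emp2 was 5.87-fold that of the rest, and a type 2 cell had more Emp2 in 86.1% of pairs. The class level of Pmp22 was lower in type 2 cells than in the rest, with a log2 ratio of -4.85, but its median was higher (2.89 against 1.35 CPM) and a type 2 cell had more Pmp22 in 61.5% of pairs, and 5 cells of the rest had at least 100 CPM. The type 2 cell with the most Emp2 was the one of lowest Sftpc. Pmp22 and Emp2 were found together in 45 of 45 type 1 cells, 10 of 11 type 2 cells and 21 of the rest, and made up 0.713% of all type 1 reads, against 0.0421% and 0.0182%.

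**Figure D1:**
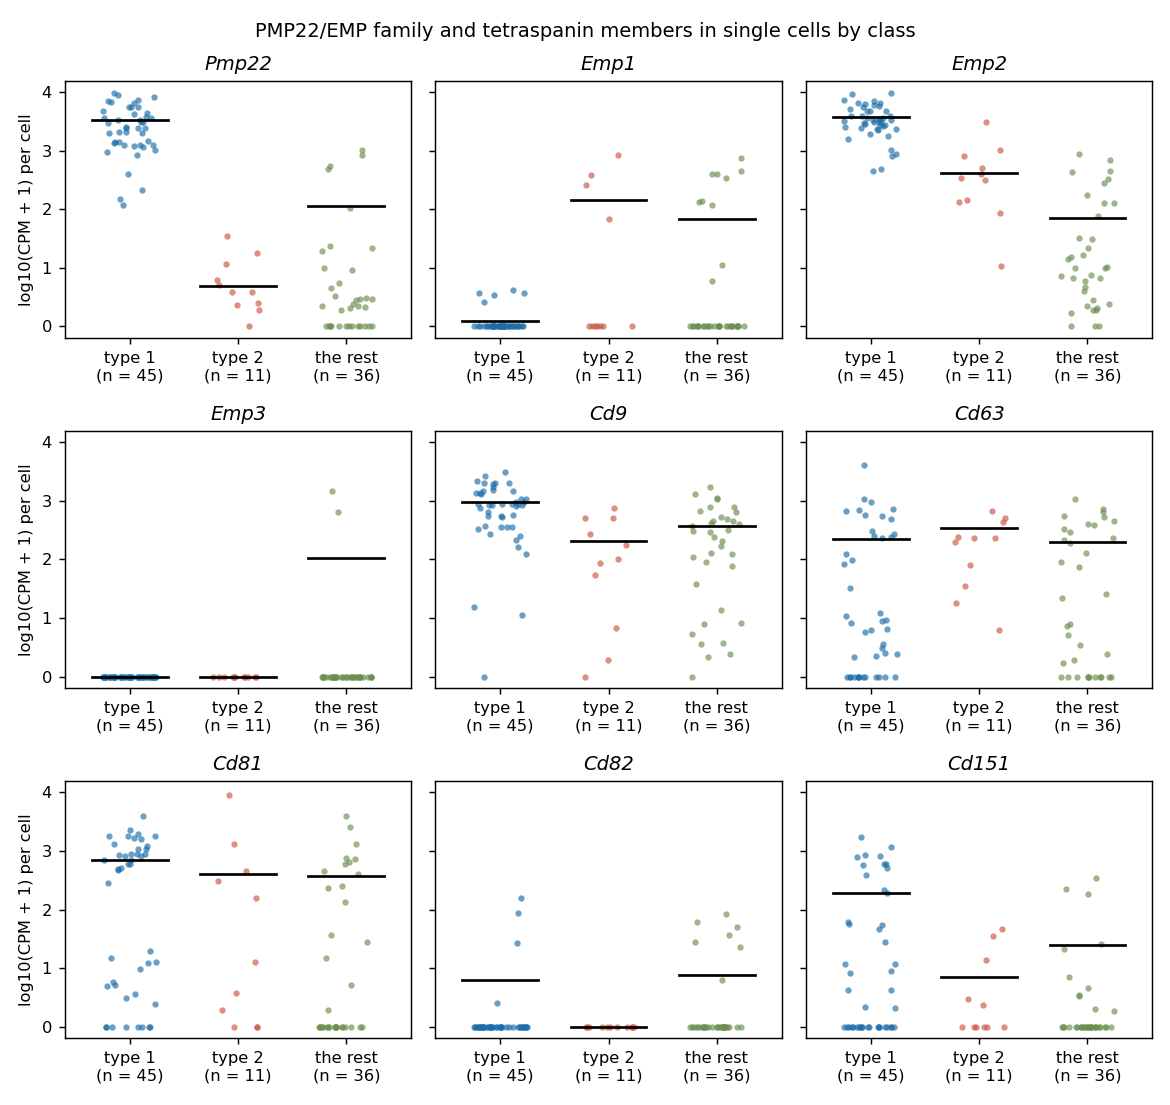
Level of each member in single cells, as log10(CPM + 1), for type 1 cells (n = 45), type 2 cells (n = 11) and the rest (n = 36). Each point is a cell and each black line is the class level; Pmp22 and Emp2 are high in all type 1 cells, whereas Cd81 divides the cells of each class into high and low.

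Emp1 and Emp3 were not found at any level in type 1 cells beyond single reads. Emp1 (chromosome 6, 135362545 to 135383173, plus strand), an epithelial gene found in airway and squamous cells, had 5 reads in type 1 cells, 1 in each of 5 cells. Its level was 0.216 CPM (0.0702 to 0.504) in type 1 cells, 143 (133.8 to 152) in type 2 cells and 67.99 (64.9 to 71.2) in the rest. The log2 ratio was -9.37 (-10.99 to -8.14) for type 1 against type 2 and -8.30 (-9.92 to -7.07) for type 1 against the rest.

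Where Emp1 was found outside type 1 cells, it was found in few cells at high level. Among type 2 cells 4 of 11 had Emp1 reads, at 66.05, 263, 390 and 842 CPM, and the other 7 had none. Among the rest 10 of 36 had reads, up to 742 CPM. The highest cell held 45.5% of the type 2 reads, and without it the type 2 level was 93.4 CPM. The median was 0 in all classes, so that the classes overlapped at 0 and differed in their positive cells. The type 2 level was 2.10-fold that of the rest (log2 ratio 1.07). It stayed at least 2-fold higher in 8 of 15 alternative settings, counting the setting for cells past both cuts, which could change nothing. All 4 type 2 cells with Emp1 reads lay in chip columns 1 to 10. In columns 11 to 20 the 6 type 2 cells had none, so the ratio of -6.41 to the rest there is a bound set by the floor. Type 1 against type 2 could not be compared in those columns.

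Emp3 (chromosome 7, 45918023 to 45921404, minus strand) is usually found in mesenchymal and blood cells. It had 0 reads in type 1 cells and 0 in type 2 cells, against 2817 reads in the rest (104.2 CPM, 100.3 to 108.1). These came from 2 cells, at 1457 and 642 CPM. Against the floor of 3 reads per class, Emp3 was at least 803-fold lower in type 1 cells and at least 225-fold lower in type 2 cells than in the rest. A count of 0 of 45 cells allows a share of up to 7.87% of type 1 cells with a read (exact 95% bound), and 0 of 11 allows 28.5% of type 2 cells.

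Both Emp3 cells were the 2 cells with over 500 CPM of Col3a1, a fibrillar collagen gene of fibroblasts. One had 1089 CPM of Col3a1, 2552 CPM of Dcn and 1032 CPM of Pmp22, the highest Pmp22 level in the rest. The other had 870 CPM of Col3a1, 912 CPM of Vim and 3974 CPM of Cd81, the highest Cd81 level in the rest, but 1.45 CPM of Pmp22. This second cell had 0 CPM of Dcn and Col1a2 and 5.81 CPM of Col1a1, and was not high in the fibroblast list. Dcn was not particular to the first cell, as 10 cells of the rest had at least 100 CPM of it. Neither had a read of Epcam, which was found in 26 of 36 cells of the rest and in 28 of 45 type 1 cells. Without these 2 cells 1 member, Emp1, remained at least 2-fold lower in type 1 cells than in the rest.

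Cd9, which is widespread in epithelia and acts in cell fusion and adhesion, was the tetraspanin with the steadiest detection. It lies on chromosome 6 from 125460266 to 125494791 (minus strand). In type 1 cells the level ran from 0 through a median of 862 to 3155 CPM, in type 2 cells from 0 through 101.8 to 744 CPM and in the rest from 0 through 271 to 1718 CPM. The ranges overlapped, with the type 1 median above the others. It was found in 44 of 45, 10 of 11 and 35 of 36 cells. The class levels were 972 CPM (959 to 985), 204 (193 to 215) and 377 (369 to 384), which gave log2 ratios of 2.25 for type 1 against type 2 and 1.37 for type 1 against the rest.

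Cd151, the partner of laminin-binding integrins, also favoured type 1 cells by summed reads. It lies on chromosome 7 from 141467392 to 141471473 (plus strand). The level ran from 0 through a median of 3.26 to 1765 CPM in type 1 cells, from 0 through 0 to 45.96 CPM in type 2 cells and from 0 through 0 to 338 CPM in the rest. It was found in 25 of 45, 5 of 11 and 11 of 36 cells, and the high type 1 cells lay above the whole type 2 range. Its class levels were 191 CPM (186 to 197), 6.02 (4.28 to 8.23) and 23.8 (21.97 to 25.7), with log2 ratios of 4.99 for type 1 against type 2 and 3.01 for type 1 against the rest. A single cell held 47.3% of the reads of the rest, which stood at 13.2 CPM without it. Cell by cell the difference was weaker. A type 1 cell had more Cd151 in 61.6% of pairs with type 2 cells and 66.6% of pairs with the rest, and 12 type 1 cells had at least 100 CPM. For type 2 against the rest the log2 ratio was -1.98, but a type 2 cell had more Cd151 in 57.1% of pairs.

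Cd81, the close relative of Cd9 and a co-receptor on B cells and hepatocytes, was within 2-fold between classes as summed, with ratios that moved with single cells. It lies on chromosome 7 from 143052739 to 143067934 (plus strand). The level ran from 0 through 512 to 3881 CPM in type 1 cells, from 0 through 11.49 to 8955 CPM in type 2 cells and from 0 through 0 to 3974 CPM in the rest. Most cells were either high or near 0, with 26 type 1 cells, 5 type 2 cells and 12 of the rest at 100 CPM or more. The class levels were 704 CPM (694 to 715), 401 (386 to 417) and 368 (361 to 375).

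The class ratios of Cd81 rested on single cells. The type 2 cell of lowest Sftpc held 65.6% of the type 2 reads, and the Col3a1 cell with 1.45 CPM of Pmp22 held 54.99% of those of the rest. Type 1 against type 2 was 0.81 on the log2 scale, 2.31 without the type 2 cell and -0.57 when every cell was thinned to 90000 reads. Type 2 against the rest was 0.13, and -1.37 without that type 2 cell. Type 1 against the rest was 0.94, and 2.27 without the 2 cells with over 500 CPM of Col3a1, and it passed 2-fold in 6 of 15 alternative settings. The type 2 cell of lowest Sftpc had 190508 reads, 3 of 10 type 2 markers over 100 CPM and 992 CPM of Ager.

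Cd63 could not be separated from a near copy. It lies on chromosome 10 from 128900989 to 128912822 (plus strand), and the processed pseudogene Cd63-ps held 189, 317 and 192 CPM in the 3 classes, next to 222, 338 and 198 CPM for Cd63 itself. Spearman's rho between the pair over 92 cells was 0.894, so that Cd63 values are uncertain in scale. The level of Cd63 ran from 0 through a median of 7.23 to 4031 CPM in type 1 cells, from 5.25 through 228 to 658 CPM in type 2 cells and from 0 through 14.05 to 1087 CPM in the rest. It was found in 11 of 11 type 2 cells but in 32 of 45 type 1 cells and 25 of the rest, and the ranges overlapped. The log2 ratios were -0.61, 0.17 and 0.77 for type 1 against type 2, type 1 against the rest and type 2 against the rest. Each of these changed sign under at least 1 alternative. With the copy added they were -0.67, 0.08 and 0.75, which were not recomputed under the alternatives.

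Cd82, a tetraspanin known as a suppressor of metastasis, was near the limit of detection. The gene lies on chromosome 2 from 93419111 to 93463140 (minus strand). It was found in 4 type 1 cells, 0 type 2 cells and 7 of the rest, at 5.32, 0 and 6.73 CPM. No class reached 10 CPM, and Cd82 was left out of the counts of called genes.

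Exons of Cd9, Cd81 and Cd151 overlap noncoding genes on the opposite strand. The partner of Cd81, R74862, had 0 reads, and whether the counting used strand was not given in the sources used here. The pseudogene of Cd9 took 13 reads at most in a class.

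Set against all genes, the members' counts were as follows. In type 1 against type 2, 7 members were compared, of which 4 (Pmp22, Emp2, Cd9 and Cd151) were at least 2-fold higher, beside 51.4% of all genes, and 1 (Emp1) at least 2-fold lower, beside 24.3%. In type 1 against the rest, 8 were compared, with the same 4 higher, beside 33.4%, and 2 (Emp1 and Emp3) lower, beside 34.8%. In type 2 against the rest, 2 of 8 (Emp1 and Emp2) were higher, beside 21.7%, and 3 (Pmp22, Emp3 and Cd151) lower, beside 51%. The share of members called higher was thus close to the background for type 1 against type 2.

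The median log2 ratio of all genes was 1.13 for type 1 against type 2, 0.00443 for type 1 against the rest and -1.10 for type 2 against the rest. Relative to that median the type 1 to type 2 ratio was 8.64 for Pmp22, 3.86 for Cd151, 2.03 for Emp2 and 1.12 for Cd9, and it was -0.32 for Cd81. Without the top cell of each gene and class the median of all genes was 3.22, over 5995 genes in place of 8796. For each gene that setting takes 1 of 11 type 2 cells but 1 of 45 type 1 cells, so its median is not like the reported one. The ratios there were 3.43 for Emp2, 2.42 for Cd9, 5.15 for Cd151 and 10.06 for Pmp22. Emp2 was then near and Cd9 below the median. The median of the members compared was 2.25, 1.15 and -0.38 in the 3 comparisons, which share cells with one another.

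A stricter measure was the share of cell pairs in which the type 1 cell was higher. At least 0.9 of pairs was reached by 0.512% of genes against type 2 and by 0.47% against the rest. Of the 9 members, 2 reached it in both comparisons, namely Pmp22 (100% and 98.8%) and Emp2 (94.3% and 99.6%). Cd9 came next, with 85.96% and 77.6%.

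**Figure D2:**
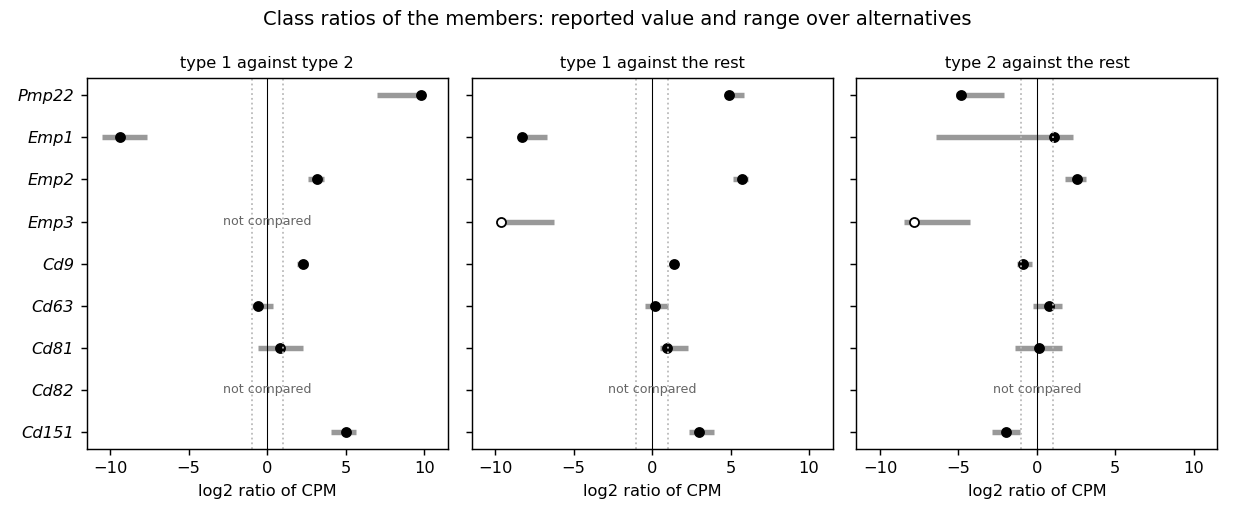
Log2 ratio of class CPM for each member in the 3 comparisons (horizontal axis), with the reported value as a point, open where it is a bound, and its range over the alternative settings as a grey bar; dotted lines mark 2-fold. Pmp22, Emp2, Cd9 and Cd151 stay above 2-fold in both type 1 comparisons, whereas the bars of Cd81 and Cd63 cross or come near to 0.

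The rest were described by the marker lists in which each cell was high: 12 by the club list, 10 by the ciliated list, 4 by club and basal, 3 by club and ciliated, 2 by basal and 1 by fibroblast, with 4 cells in none. These numbers are small and the groups were not tested. Below, a list named by itself stands for the cells high in that list alone. Emp2 was found in 10 of 10 cells high in the ciliated list, at 185 CPM (174 to 196), with a range of 1.80 to 880 CPM, against 11.7 CPM (9.77 to 14.01) in the cells high in the club list. The ranges of these groups overlapped, and 1 cell held 50.9% of the ciliated reads.

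Emp1 had 0 reads in the 10 cells of the ciliated list, which allows up to 30.8% of such cells with a read. Emp1 stood at 204 CPM in the 4 cells high in the club and basal lists, where 2 had reads. In the 12 cells of the club list it stood at 27.3 CPM, and 3 had reads. Cd9 stood at 1046 CPM in the 2 cells of the basal list and at 719 CPM in the 4 of club and basal, against 401 CPM in the ciliated and 162 CPM in the club list. The 4 highest Cd9 cells, from 1080 to 1718 CPM, came from 4 different groups. Cd151 had 0 reads in the cells of the ciliated list, and 98.7% of its reads in those of club and basal came from 1 cell.

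**Figure D3:**
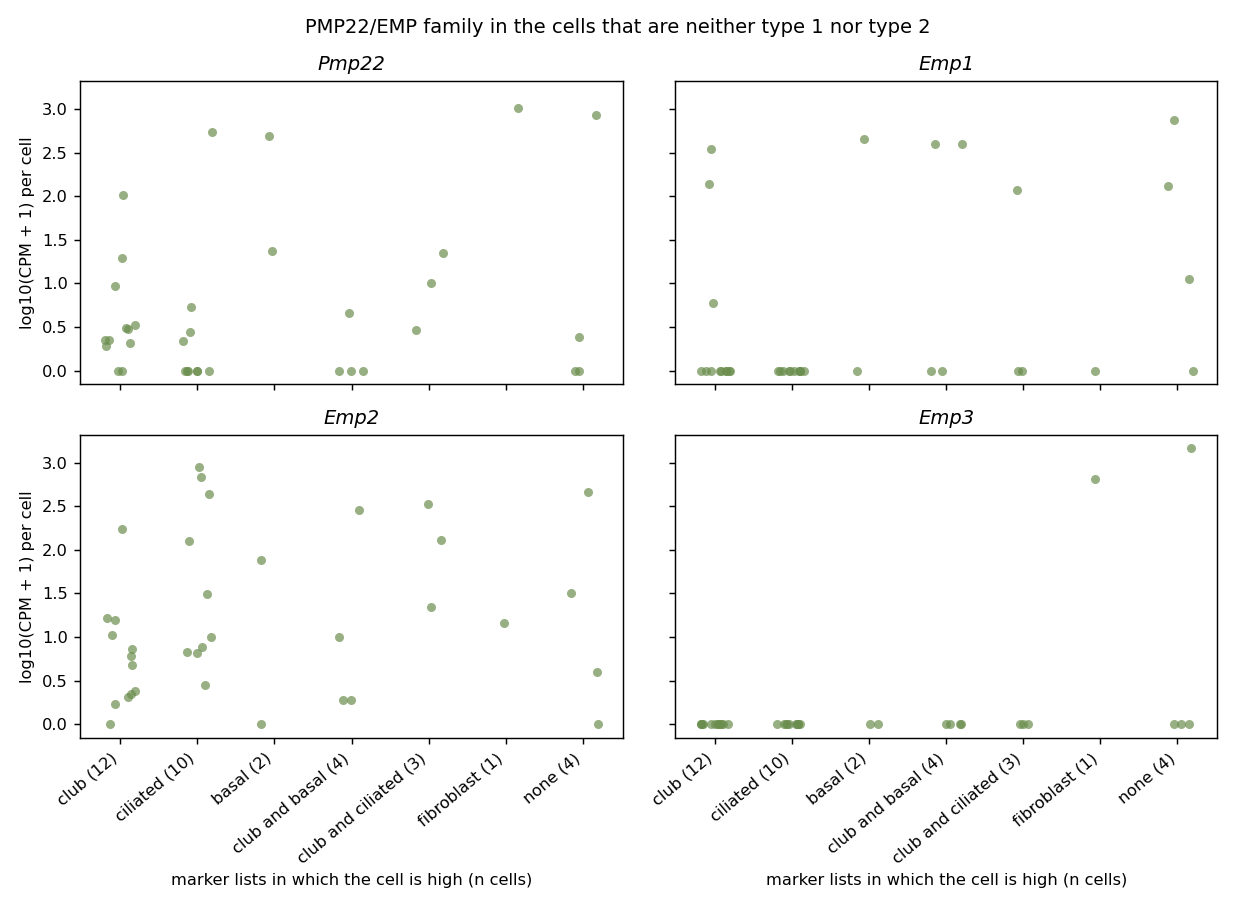
Levels of the PMP22 family genes, as log10(CPM + 1), in the 36 cells that were neither type 1 nor type 2, by the marker lists in which the cell was high (horizontal axis, number of cells in brackets). Each point is a cell, and Emp3 is found in 2 cells. Emp2 is found in each of the 10 cells high in the ciliated list alone. Emp1 is found in none of those 10, but in 1 of the 3 cells of club and ciliated.

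By summed reads, the other tetraspanins were mostly higher in type 1 cells. Of 26 listed, 20 were in the table and 14 could be compared between type 1 and type 2, where 11 were at least 2-fold higher and 2 lower. Of 16 compared with the rest, 9 were higher and 5 lower. All genes gave 51.4% higher and 24.3% lower against type 2, and 33.4% and 34.8% against the rest. The median log2 ratio of these tetraspanins was 4.26 and 2.04, beside 1.13 and 0.00443 for all genes. Cell by cell, the 11 higher than in type 2 were uneven. The share of pairs with a higher type 1 cell ran from 43.2% for Tspan1 to 91.5% for Tspan8. These counts were not recomputed under the alternatives.

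The rule for naming passed 12, and the 8 with the largest ratios are described first. This limit leaves out Tspan1, and also Tspan8, Tspan2 and Tspan15, which were found in the most type 1 cells. These are given last, chosen after their values were seen. Tspan5, one of the tetraspanins that bind the protease ADAM10, stood at 173, 4.17 and 5.25 CPM in type 1 cells, type 2 cells and the rest, and was found in 23 of 45 type 1 cells. Tspan13 stood at 88.2, 0.618 and 37.3 CPM, and was found in 18 type 1 cells. Tspan3 was at 80.8, 0 and 96.4 CPM, so that it was at least 174-fold higher in type 1 than in type 2 cells and within 2-fold of the rest.

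Tspan6 was at 67.7 CPM from 9 type 1 cells, with 1 read in type 2 cells and 3 in the rest. Its log2 ratio of type 1 to type 2 was 8.78 as counted (counting interval 6.30 to 14.08) and 7.19 with the floor. For type 1 against the rest it was 9.25 (7.70 to 11.53). Tspan4 was at 105.8, 4.17 and 14.8 CPM, but came from 5 type 1 cells, 1 of which held 50.1% of the reads. Tspan9 was at 115.2, 106.5 and 2.92 CPM, within 2-fold between the alveolar classes, and was found in 15 of 45 type 1 and 6 of 11 type 2 cells. Without its top cell in each class it stood at 70.9, 54.1 and 0.604 CPM. Tspan11 favoured type 2 cells, at 0.389, 118.1 and 12.6 CPM, in 5 of 11 type 2 cells, and Upk1b, a uroplakin, favoured the rest, at 0.346, 0.926 and 70.5 CPM, from 8 cells of the rest (41.8 CPM without the top cell).

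Tspan8 was at 1296, 70.6 and 52.2 CPM and was found in 43 of 45 type 1 cells. A type 1 cell had more Tspan8 in 91.5% of pairs with type 2 cells and 93.8% of pairs with the rest, so that Tspan8 passed the measure of 0.9 of pairs beside Pmp22 and Emp2. Tspan2 was at 885, 37.98 and 75.5 CPM, in 39 type 1 cells, and Tspan15 at 350, 17.4 and 22.8 CPM, in 38. Tspan1 was highest in the rest, at 23.8, 6.95 and 381 CPM, and was found in 27 of 36 of those cells. Its log2 ratio was 1.78 for type 1 against type 2 and -4.00 for type 1 against the rest.

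Of the relatives of PMP22, Perp, a desmosome-associated gene, was at 12.2, 45.2 and 153 CPM. A single cell held 99.3% of its type 2 reads. Tm4sf1, of the L6 family of tetraspanin-like proteins, was at 819, 1.24 and 368 CPM, a log2 ratio of 9.37 for type 1 against type 2 and 1.16 for type 1 against the rest.

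The known partners of tetraspanins differed among themselves. The immunoglobulin-superfamily partners of CD9 and CD81 were nearly absent from type 1 cells: Igsf8 was at 0.346, 52.3 and 19.7 CPM and Ptgfrn at 0.303, 55.3 and 52.7 CPM, each from under 10 reads in type 1 cells. Without the top cell of each class, Igsf8 stood at 27.9 CPM in type 2 cells and 6.96 CPM in the rest, and Ptgfrn at 25.8 and 32.7 CPM. The median of both was 0 CPM in every class. Igsf8 was found in 5 of 11 type 2 cells and 6 of 36 of the rest, and Ptgfrn in 4 and 15. Cell by cell the difference was weaker, with a higher type 1 cell in 28.7% and 43.6% of pairs for Igsf8 and 36.6% and 33.4% for Ptgfrn. Of the integrin subunits, 3 went the other way. Itgb1 was at 774, 244 and 45.5 CPM, and Itgav at 297, 9.11 and 150 CPM. Itga3, an alpha subunit that binds CD151, was at 224, 21.2 and 76.8 CPM. Itga6 and Itgb4, which pair as the hemidesmosome integrin, were higher in the rest, at 18.2, 0.309 and 60.7 CPM and at 0.303, 0.154 and 70.5 CPM. Single cells carried much of the lower levels, and without the top cell Itga6 stood at 7.77 CPM in type 1 cells and 39.7 CPM in the rest, Itga3 at 6.14 CPM and Itgav at 2.26 CPM in type 2 cells. Adam10 was at 262, 0.772 and 37.3 CPM, in 18 of 45 type 1 cells, with 18.3 CPM in the rest without the top cell. Over the 14 partners, 13 were compared between type 1 and type 2, of which 6 were at least 2-fold higher and 3 lower, beside 51.4% and 24.3% of all genes. Their median log2 ratio was 0.70, below the 1.13 of all genes. Against the rest, 5 of 13 were higher and 4 lower, beside 33.4% and 34.8%.

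**Figure D4:**
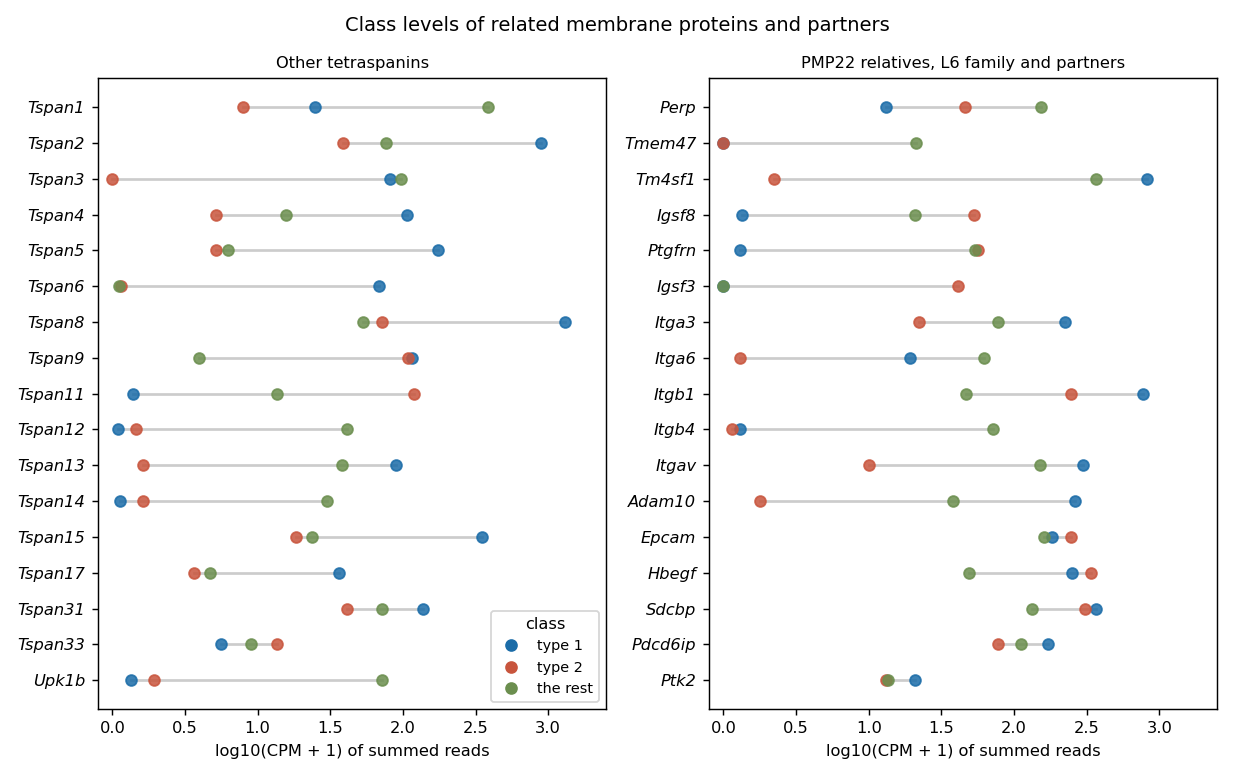
Class levels, as log10(CPM + 1) of summed reads (horizontal axis), of the other tetraspanins (left) and of the PMP22 relatives, the L6 gene Tm4sf1 and the partners (right) with at least 10 CPM in 1 class; each point is a class. Adam10, Itgb1 and Tm4sf1 are highest in type 1 cells, whereas Igsf8 and Ptgfrn are near 0 there.

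The genes whose pattern was most like that of a member over the 92 cells were sought by Spearman's rho of log-normalised values over 1532 genes. For Pmp22 they were Spock2 (0.829), Ager (0.820) and Hopx (0.777), and for Emp2 Cldn18 (0.810), Clic5 (0.783) and Cadm1 (0.770). For Cd9 they were Tspan15 (0.542), S100a6 (0.533) and Bsg (0.516). Over all cells these values carry the difference between classes, and Ager set the classes.

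Within the 45 type 1 cells the likeness was weaker. Pmp22 and Emp2 had a rho of 0.737 over 92 cells and 0.183 over type 1 cells. The highest values in type 1 cells were 0.582 for Pmp22 with Sh3glb1, 0.376 for Emp2 with Aqp5 and 0.540 for Cd9 with Apoa1bp, and the second for Cd9 was Cd81, at 0.529.

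Cd9 and Cd81 were the pair of members most alike in type 1 cells. Their rho of 0.529 (Pearson's r 0.470) was 0.530 without the 2 cells farthest from the Cd9 median, 0.550 at 90000 reads a cell, and 0.475 and 0.613 in chip columns 1 to 10 and 11 to 20. In 19 further type 1 cells, left out for their mitochondrial share, rho was 0.365. These cells share 1 mouse and 1 chip, and no p-value was computed. All of Cd9, Cd63 and Cd81 were found in 26 of 45 type 1 cells, 7 of 11 type 2 cells and 14 of the rest.

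**Figure D5:**
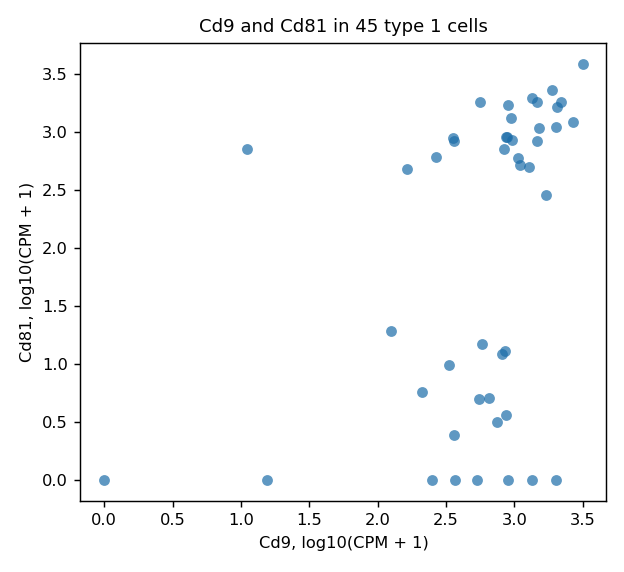
Cd81 against Cd9 in the 45 type 1 cells, each axis as log10(CPM + 1) and each point a cell. Cells with high Cd81 mostly had high Cd9, whereas cells near 0 for Cd81 covered much of the Cd9 range (rho 0.529).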

How the data were processed

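Single cells of 1 mouse were sorted, captured on a Fluidigm C1 chip and sequenced. Per the labels and methods, the authors controlled read quality with Trim Galore and FastQC, mapped them with HISAT2 to GRCm38 and counted them with featureCounts; tool versions and strand use were not given in the sources used here. The authors deposited raw read counts per gene, 1 column per cell, with no normalization, and no molecular identifiers are stated. Repeated PCR reads were therefore counted separately.

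Cells were kept at under 0.15 of reads on mt- genes, and classes were cut at 5000 CPM of Ager and 8000 CPM of Sftpc. All cells had over 90000 reads and over 500 genes. Reads were summed by class and scaled to CPM, and log2 ratios were computed for all genes with at least 10 CPM in 1 class, with Python 3.11.15, numpy 2.4.6, scipy 1.17.1 and pandas 2.3.3. Figures were drawn with matplotlib 3.10.9. The class totals of 23130868, 6477051 and 27047343 reads set floors of 0.130, 0.463 and 0.111 CPM for a gene with 3 or fewer reads. Correlations used counts scaled to 10000 per cell and log-transformed, over genes found in at least 50% of cells. TMM factors came from edgeR 4.0.16 in R 4.3.3, as an alternative scaling only. The scripts were tested on simulated data. By the study's account, sites were viewed by microscopy and those with single cells were analysed; no doublet caller was run.

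Named genes were the 9 members, up to 8 genes per related list with at least 50 CPM in 1 class and a log2 ratio of at least 2 in size in a type 1 comparison, and the 3 genes most like Pmp22, Emp2 and Cd9. Tspan1, Tspan8, Tspan2 and Tspan15 were added after their values were seen. Other genes are marker genes or are named where a value rests on them. Members and lists were chosen with earlier results of these data known. Positions and overlaps are from GENCODE vM21 (GRCm38). Alternatives changed the mitochondrial limit, the cuts, the weighting of cells, the scaling, the depth, single cells and chip columns. Imaging and other data of the study were not analysed here.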

Additional observations from a re-analysis of the deposited data

Results flagged for a closer look

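The 49 cells left out for their mitochondrial share entered no comparison above. Of these, 19 passed the Ager cut, and in them 7 members had more than the 3 reads set as a floor. Pmp22 stood at 3097 CPM and Emp2 at 3163 CPM in these cells, next to 3382 and 3749 CPM in the kept type 1 cells. Per cell, Pmp22 began at 0 with a median of 1176 CPM, and 16 of 19 cells had at least 100 CPM. Emp2 began at 10.8 CPM with a median of 2670.5 CPM, and 18 of 19 cells had at least 100 CPM. In the kept type 1 cells the lowest levels were 118.2 CPM for Pmp22 and 449 CPM for Emp2. A single cell held 47.7% of the left-out Pmp22 reads, and without it the level was 1711 CPM. Cd9 stood at 644 CPM, Cd81 at 388 CPM, Cd63 at 110 CPM and Cd151 at 50.8 CPM, each below its level in the kept cells. Cd82 was at 33.3 CPM, from 266 reads in 5 cells, against 5.32 CPM in the kept type 1 cells. Emp1 had 2 reads and Emp3 had 0. The part of cell damage, depth or free RNA in these values was not tested.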

How the results depend on the processing

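The 9 counts of members (past 2-fold, higher and lower, in each of 3 comparisons) stayed within 1.5 times the reported value in 129 cases and moved in 6. These cases include the setting for cells past both cuts, which could change nothing because 0 cells passed both cuts. The log2 ratios of single members were less steady: 143 stayed inside the reported counting interval, 196 moved outside it and 1 changed direction. An unchanged count could also hide a change of members. In type 2 against the rest, Cd81 took the place of Emp1 with the mean of cells' CPM and at 90000 reads a cell. Members higher in type 2 cells than in the rest numbered 1 in place of 2 with no mitochondrial limit, with both cuts halved, and without the top cell of each gene and class. On chip columns 11 to 20, members lower in type 1 cells numbered 0 in place of 1 against type 2 and 1 in place of 2 against the rest. Without the 2 Col3a1 cells, an alternative chosen after seeing the data, the latter count was also 1. Emp1 in type 2 cells against the rest turned from 1.07 to -6.41 on the log2 scale on chip columns 11 to 20. That value is a bound set by the floor, because the type 2 cells of those columns had no Emp1 reads. Pmp22, Emp2, Cd9 and Cd151 stayed at least 2-fold higher in type 1 cells in all 15 alternatives, counting the setting for cells past both cuts. Leaving out the 2 Col3a1 cells could not change type 1 against type 2. Leaving out the type 2 cell of lowest Sftpc could not change type 1 against the rest. Against type 2 the range was 6.98 to 10.06 for Pmp22 (lowest with both cuts halved), 2.599 to 3.60 for Emp2, 1.89 to 2.61 for Cd9 and 4.05 to 5.69 for Cd151. The range was -0.57 to 2.31 for Cd81 and -0.97 to 0.34 for Cd63. TMM and median-of-ratios scaling moved the median of all genes by -0.40 and -0.46 in type 1 against type 2. Without the top cell of each gene and class it moved by 2.09, to 3.22. Of the 5995 genes then compared, in place of 8796, 64.7% were higher and 16.7% lower. Under median-of-ratios scaling 29.6% of genes were higher and 43.8% lower in type 2 against the rest, in place of 21.7% and 51%. Without the filter on low counts, 40.3% of genes were higher and 24.1% lower in type 1 against type 2. The causes were not tested. No paired analysis was possible because all cells belong to 1 group. The 11 type 2 cells and the single mouse limit every comparison.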
